A study of Mus musculus with 8 samples.

Results

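The transcripts of Mt1, Mt2, Mtf1, Slc30a1, Slc39a4 and Slc39a10 were described in differentiating mouse embryonic stem cells of the CJ9 line. They are 6 of the 38610 gene symbols of the deposited expression table, each on 1 line, and all 6 passed the filter on low values. They were taken by symbol, and the set was chosen because Mt1 and Mt2 lay on opposite sides of wild type in 2 knockouts of the same data. Their levels and differences are therefore a description, with no test. Poly(A)-selected RNA was sequenced from 3 libraries labelled EVX1 KO, 3 Evx1as KO libraries and 2 wild-type (WT) libraries. CJ9 derives from the 129S4/SvJae mouse strain, and all libraries are of day 4 of LIF withdrawal, in medium that holds serum but not the cytokine that keeps the cells undifferentiated. The knockouts were made by CRISPR, per the series title, and Evx1as, a noncoding RNA, comes from the same locus as Evx1, a homeobox factor of the primitive streak. The labels give neither the number of clones nor whether replicates came from separate cultures, so the p-values below measure the spread between these libraries, which may be technical.

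Metallothioneins are small cysteine-rich proteins that bind zinc and copper in the cytosol and buffer the free metal. Their genes are switched on by MTF1, a zinc finger factor that binds DNA when cellular zinc is high, at short sites called metal response elements, and they also respond to glucocorticoids and oxidative stress. Zinc leaves the cytosol through the ZnT proteins of the Slc30 family and enters it through the ZIP proteins of the Slc39 family. Slc30a1 encodes ZnT1, the zinc exporter of the plasma membrane and a target of MTF1, Slc39a4 encodes ZIP4, an importer of the gut and the visceral yolk sac, and Slc39a10 encodes ZIP10, an importer of the plasma membrane.

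The promoter windows of the 3 genes known as MTF1 targets are printed to show where matches to the metal response element core lie within them. These 3 are shown since Mt1 and Mt2 differed between groups and Slc30a1 did not separate them. Each window runs from 250 bases before to 50 bases after the RefSeq start site on GRCm38.p6, 5′ to 3′ on the gene's strand, which is the plus strand for all 3. Capitals mark the core letters TGCACNC or TGCGCNC on either strand. The windows are chr8:94178839-94179138 for Mt1, chr8:94172368-94172667 for Mt2 and chr1:191906531-191906830 for Slc30a1.
Mt1: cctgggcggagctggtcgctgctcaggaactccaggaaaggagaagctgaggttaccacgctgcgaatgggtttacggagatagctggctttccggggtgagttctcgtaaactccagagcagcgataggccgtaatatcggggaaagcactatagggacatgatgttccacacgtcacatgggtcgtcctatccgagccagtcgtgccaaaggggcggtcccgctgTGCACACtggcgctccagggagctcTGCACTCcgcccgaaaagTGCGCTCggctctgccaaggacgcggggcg
Mt2: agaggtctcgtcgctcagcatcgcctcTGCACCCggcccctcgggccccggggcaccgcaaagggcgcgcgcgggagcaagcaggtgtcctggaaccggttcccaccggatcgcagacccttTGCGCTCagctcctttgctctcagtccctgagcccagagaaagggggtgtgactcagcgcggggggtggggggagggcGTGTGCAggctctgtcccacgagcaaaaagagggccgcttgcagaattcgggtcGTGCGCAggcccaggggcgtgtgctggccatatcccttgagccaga
Slc30a1: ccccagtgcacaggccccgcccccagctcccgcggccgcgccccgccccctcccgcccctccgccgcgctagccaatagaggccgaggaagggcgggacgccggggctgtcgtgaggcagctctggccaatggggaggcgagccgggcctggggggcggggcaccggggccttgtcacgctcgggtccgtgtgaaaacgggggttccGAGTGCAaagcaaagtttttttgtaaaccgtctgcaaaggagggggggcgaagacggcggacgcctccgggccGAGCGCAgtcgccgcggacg

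The Mt1 window held 3 metal response cores, at bases -23 to -17, 3 to 9 and 21 to 27 from the start site, all on the gene's own strand. The Mt2 window held 4, at -223 to -217, -128 to -122, -50 to -44 and 5 to 11, the last pair on the opposite strand. The Slc30a1 window held 2, at -43 to -37 and 31 to 37, both on the opposite strand. Among 32851 RefSeq promoter windows of the same length, 25.7% held at least 1 core, 7.11% at least 2, 1.97% at least 3 and 0.517% at least 4. The core of the antioxidant response element, TGACNNNGC on either strand, was found once in Mt2, at -79 to -71, once in Slc30a1, at -82 to -74, and in 12.4% of all windows. None of these matches overlapped another. The window of Mtf1 and both windows of Slc39a10 held no match to the metal response core, and Slc39a4 is named without a window. A match describes letters and is not a bound site. Counts and positions hold for the RefSeq start site used, and elements outside the window were not counted.

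**Figure D1:**
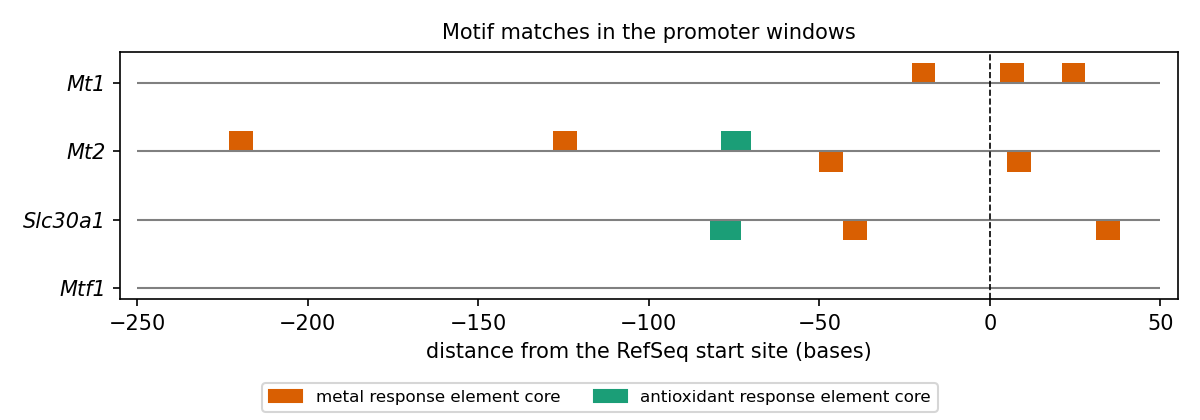
Matches to the metal response element core and the antioxidant response element core in the promoter windows of Mt1, Mt2, Slc30a1 and Mtf1. The x axis gives the distance from the RefSeq start site in bases, boxes above a line are on the gene's strand and boxes below it on the opposite strand. Within these windows Mt1 has 3 metal response cores, Mt2 4 and Slc30a1 2.

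Values are FPKM, fragments scaled to transcript length and library size, which summed to 531523 to 587798 per library. Absolute depth is unknown, and relative depths estimated from steps between low values ran between 0.862 and 1.189 times that of WT replicate 1, lowest in the Evx1as KO libraries. Evx1as had 5.01, 8.81 and 7.39 FPKM in the libraries labelled EVX1 KO and 0.0549, 0.104 and 0.0485 FPKM in Evx1as KO libraries, against 5.36 and 6.75 FPKM in WT libraries. Evx1 had 26.3, 20.8 and 31.7 FPKM in the libraries labelled EVX1 KO and 2.45, 3.84 and 0.541 FPKM in Evx1as KO libraries, against 22.0 and 31.2 FPKM in WT libraries. The level of Evx1 therefore did not mark the libraries labelled EVX1 KO, and an edit that leaves the transcript in place cannot be seen in these values. Fold changes are differences of log2(FPKM + 1) with their standard errors (SE), from a limma fit over 13188 genes. This scale understates changes of low genes.

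Both metallothionein transcripts were lower in the libraries labelled EVX1 KO, and higher in Evx1as KO libraries, than in either WT library. Mt1 (NM_013602, chromosome 8, 96702988 to 96704227 in the deposited table) had 10.3, 17.9 and 17.3 FPKM in the libraries labelled EVX1 KO and 166, 181 and 218 FPKM in Evx1as KO libraries, against 108 and 42.1 FPKM in WT libraries. The groups did not overlap, and WT replicate 1 lay nearer to Evx1as KO than WT replicate 2 did. Means were 15.1 ± 4.22 FPKM in the libraries labelled EVX1 KO (SD, n = 3), 188 ± 26.3 FPKM in Evx1as KO (n = 3) and 74.8 ± 46.3 FPKM in WT (n = 2). By group means Mt1 was 4.94-fold lower in the libraries labelled EVX1 KO than in WT, 2.52-fold higher in Evx1as KO than in WT, and 12.4-fold lower in the libraries labelled EVX1 KO than in Evx1as KO. On the log2 scale these differences were -2.12 ± 0.36, 1.46 ± 0.36 and -3.58 ± 0.32 (SE).

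Mt2 followed the same order. It lies next to Mt1 (NM_008630, chromosome 8, 96696517 to 96697467 in the deposited table), with its start 6.47 kb before that of Mt1. It had 16.7, 12.99 and 25.3 FPKM in the libraries labelled EVX1 KO and 251, 242 and 295 FPKM in Evx1as KO libraries, against 159 and 54.3 FPKM in WT libraries. Again no groups overlapped, and WT replicate 1 was the higher of the WT pair. Means were 18.3 ± 6.29 FPKM in the libraries labelled EVX1 KO (SD, n = 3), 262 ± 28.2 FPKM in Evx1as KO (n = 3) and 107 ± 74.2 FPKM in WT (n = 2). Mt2 was 5.82-fold lower in the libraries labelled EVX1 KO than in WT, 2.46-fold higher in Evx1as KO than in WT, and 14.3-fold lower in the libraries labelled EVX1 KO than in Evx1as KO. The log2 differences were -2.33 ± 0.40, 1.48 ± 0.40 and -3.81 ± 0.36 (SE).

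**Figure D2:**
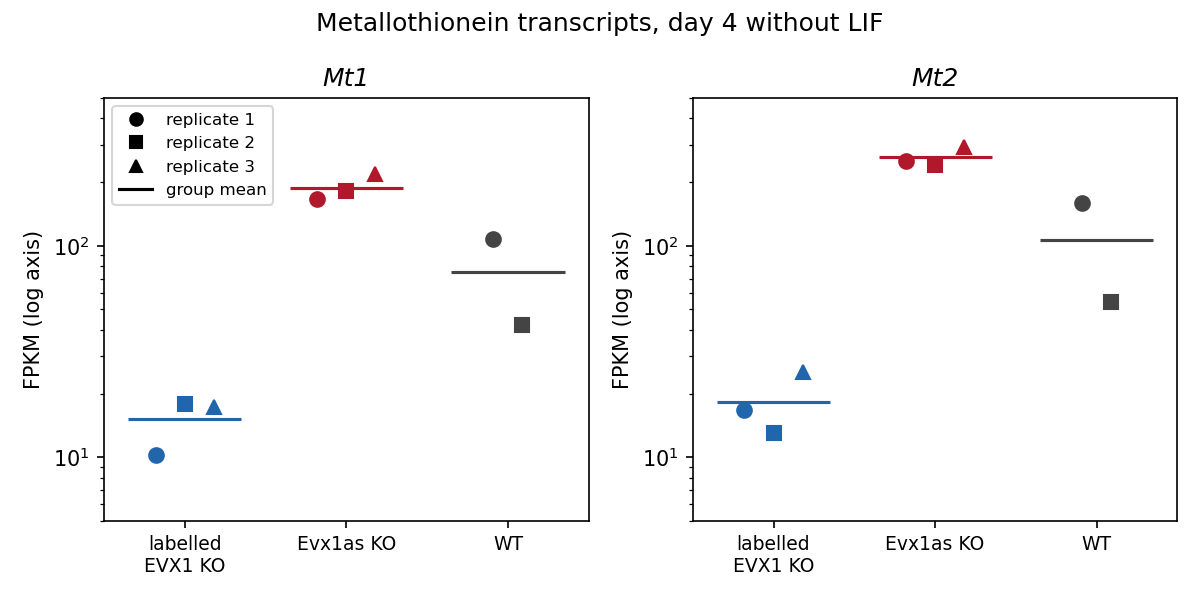
FPKM of Mt1 and Mt2 on a log axis in the 3 libraries labelled EVX1 KO, 3 Evx1as KO libraries and 2 WT libraries. Each point is 1 library, shaped by replicate number, and the line is the group mean. The libraries labelled EVX1 KO sit between 10.3 and 25.3 FPKM, the Evx1as KO libraries between 166 and 295 FPKM, and the WT libraries between 42.1 and 159 FPKM.

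Among the 13188 genes of the fit, Mt2 had the lowest and Mt1 the 2nd lowest log2 difference of the libraries labelled EVX1 KO from Evx1as KO. Against WT the same libraries placed Mt2 3rd and Mt1 5th from the lowest. In Evx1as KO against WT they stood 101st and 106th from the highest. Mt1 and Mt2 were chosen by their differences, and adding 1 to FPKM shrinks those of genes with low values. By group means the libraries labelled EVX1 KO were below Evx1as KO by 69.6-fold for Myb, 26.5-fold for Foxd3 and 20.6-fold for Pipox. Their means in the libraries labelled EVX1 KO were 0.0842, 0.232 and 0.372 FPKM. The fold was 14.3 for Mt2, 12.4 for Mt1 and 5.82 for Mapk13. Ranks by fold of means are not given. By level, Mt2 ranked between 3076 and 5137 from the highest gene in the libraries labelled EVX1 KO, between 239 and 292 in Evx1as KO libraries and between 470 and 1420 in WT libraries.

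The spread of Mt1 and Mt2 was largest in WT. The higher WT library had 2.56 times the Mt1 level and 2.93 times the Mt2 level of the lower one, against ratios of highest to lowest of 1.74 and 1.95 among the libraries labelled EVX1 KO and 1.31 and 1.22 among Evx1as KO libraries. The size of each difference from WT therefore rested on which WT library was used. Without WT replicate 2, Mt1 differed by -2.79 in the libraries labelled EVX1 KO and by 0.79 in Evx1as KO, and Mt2 by -3.10 and 0.71. Without WT replicate 1, Mt1 differed by -1.45 and 2.13 in that order, and Mt2 by -1.57 and 2.25. The directions held in each case, and a direction is fixed here by how the genes were chosen.

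Over the 8 libraries the level of Mt1 spanned 21.1-fold and that of Mt2 22.7-fold. Mt2 FPKM over Mt1 FPKM was 1.63, 0.727 and 1.46 in the libraries labelled EVX1 KO and 1.51, 1.33 and 1.35 in Evx1as KO libraries, against 1.48 and 1.29 in WT libraries. Mt2 was the higher in 7 of 8 libraries, at ratios of 1.29 to 1.63, and Mt1 was the higher in replicate 2 of the libraries labelled EVX1 KO. The summed level of both was 27.0, 30.9 and 42.6 FPKM in the libraries labelled EVX1 KO and 417, 423 and 512 FPKM in Evx1as KO libraries, against 267 and 96.4 FPKM in WT libraries. The genes are close paralogs, so the counting could have split reads between them. How shared reads were counted is not known, and both the ratio and the sum could depend on it. These are bulk samples, in which fewer expressing cells and less RNA per cell cannot be told apart.

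Chromosome 8 as a whole also differed between libraries. Over the 505 genes of this chromosome that averaged 5 FPKM or more, the median deviation was -0.38, -0.30 and 0.08 (log2) in the libraries labelled EVX1 KO and 0.16, 0.15 and 0.15 in Evx1as KO libraries, against 0.11 and 0.01 in WT libraries. Replicates 1 and 2 of the libraries labelled EVX1 KO were the low ones. On the 17 chromosomes besides 1, 8 and 14 such medians lay between -0.06 and 0.05. With each library's chromosome median subtracted, the log2 difference of the libraries labelled EVX1 KO from WT was -1.86 for Mt1 and -2.08 for Mt2, and that from Evx1as KO was -3.23 and -3.46. Replicate 3 of the libraries labelled EVX1 KO, whose chromosome 8 median was not low, gave by itself -1.90 for Mt1 and -1.84 for Mt2 against WT.

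The genes around Mt1 and Mt2 differed by less, except Gnao1 in Evx1as KO. Of 12 tested named genes within 500 kb of Mt1, 0 were called by limma in the libraries labelled EVX1 KO against WT, with 2 at an unadjusted p under 0.05. Of all genes tested, 1.24% were called in that comparison and 21.2% were at an unadjusted p under 0.05. Their log2 differences ran from -0.73 to 0.05 with a median of -0.29. In Evx1as KO against WT, where 24.5% of all genes tested were called, 1 of the 12 was called. This was Gnao1, a G protein alpha subunit whose start lies 368 kb before that of Mt1. It had 1.77, 1.71 and 2.73 FPKM in the libraries labelled EVX1 KO and 9.003, 5.88 and 7.75 FPKM in Evx1as KO libraries, against 2.295 and 1.74 FPKM in WT libraries. Gnao1 rose by 1.49 ± 0.20 in Evx1as KO against WT (SE, limma adjusted p = 0.00233). The median over the 12 was 0.19 there, with a range of -0.21 to 1.49.

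Between the libraries labelled EVX1 KO and Evx1as KO, where 22% of all genes tested were called, all 12 neighbours had values below 0, with a median of -0.48, and 3 fell. These were Gnao1 (-1.48 ± 0.18, limma adjusted p = 0.00125), Nudt21, an mRNA cleavage factor (-0.77 ± 0.16, adjusted p = 0.0103), and Cpne2 (-0.52 ± 0.16, adjusted p = 0.0470). With replicate 3 as the only library labelled EVX1 KO, Nudt21 differed by -0.38 and its call was lost (adjusted p = 0.117). The Cpne2 call was lost with chromosome centring (adjusted p = 0.435), with no filter (adjusted p = 0.108), with only the 2 groups fitted (adjusted p = 0.0599) and on leaving out each single library except replicate 3 of the libraries labelled EVX1 KO (adjusted p up to 0.154). The median of all genes tested was 0.02 in both comparisons against WT and -0.002 between the knockouts.

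**Figure D3:**
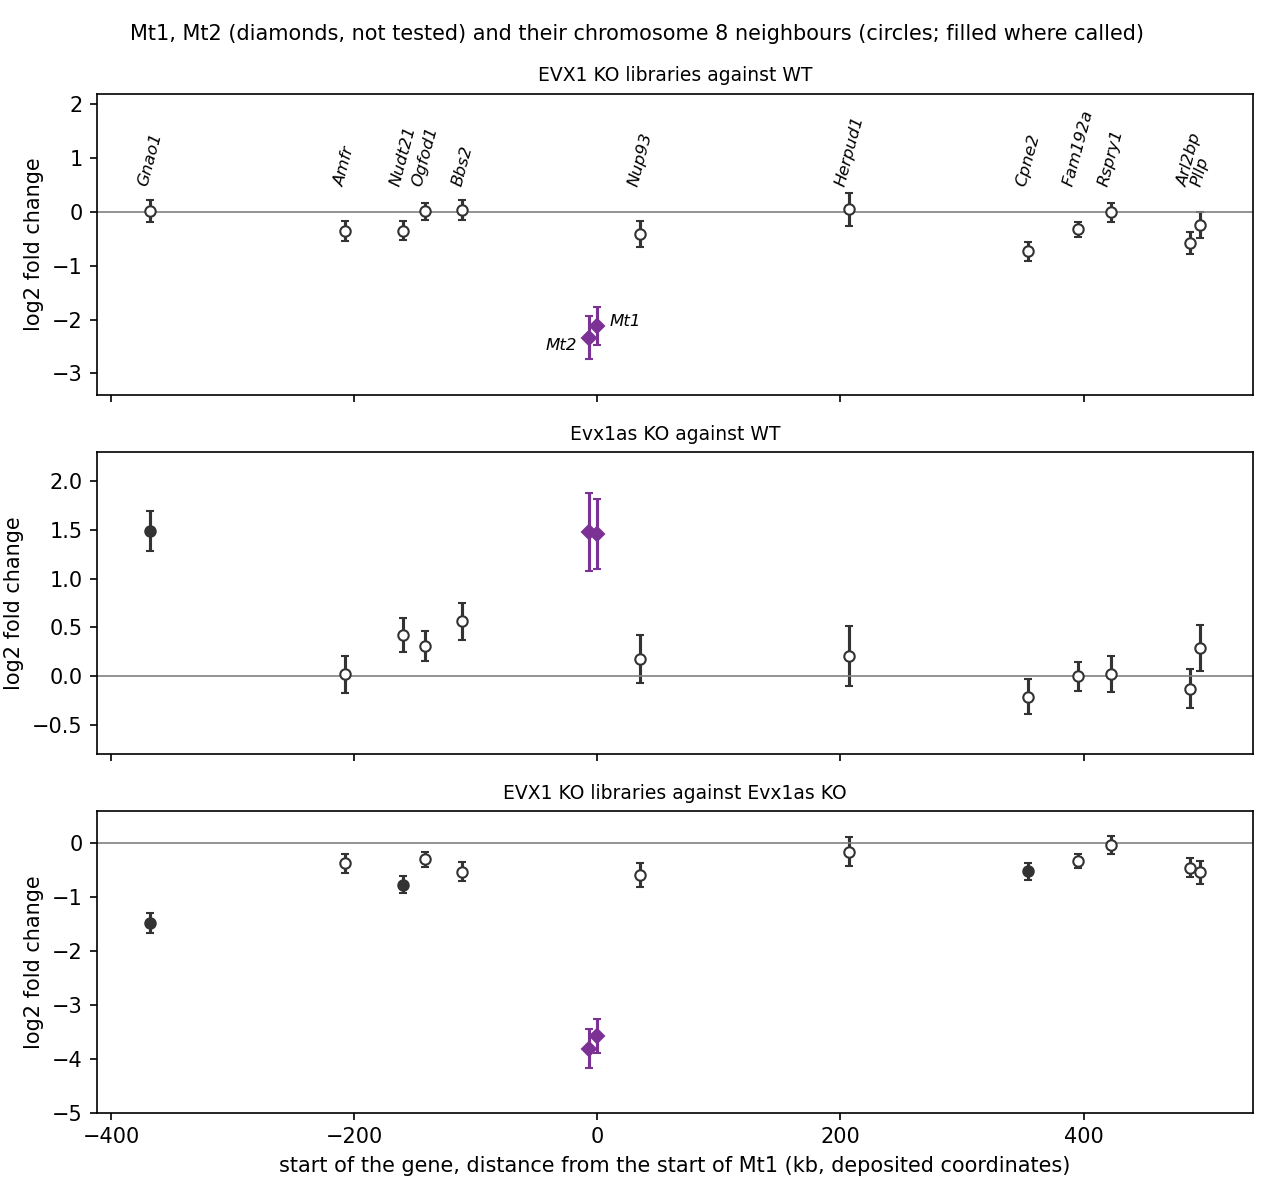
Log2 fold changes of Mt1 and Mt2 (diamonds, not tested) and of 12 tested neighbours (circles, filled where called at adjusted p under 0.05) in the 3 comparisons, with bars of 1 SE. The x axis is the distance of each gene's start from that of Mt1 in kb, in the deposited coordinates. In the libraries labelled EVX1 KO against WT, Mt1 is at -2.12 and Mt2 at -2.33, where the neighbours lie between -0.73 and 0.05.

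Mtf1, the sensor, was expressed at a low level and lay lowest in Evx1as KO. Mtf1 (chromosome 4, 124479792 to 124527044) had 3.62, 3.67 and 3.41 FPKM in the libraries labelled EVX1 KO and 2.78, 3.03 and 2.79 FPKM in Evx1as KO libraries, against 3.57 and 3.88 FPKM in WT libraries. All Evx1as KO libraries lay below every library of the other groups, which overlapped each other. The log2 differences were -0.05 ± 0.12 in the libraries labelled EVX1 KO against WT, -0.29 ± 0.12 in Evx1as KO against WT, and 0.24 ± 0.10 in the libraries labelled EVX1 KO against Evx1as KO (SE). Mtf1 thus lay on the opposite side of WT from Mt1 and Mt2 in Evx1as KO.

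Slc30a1, the exporter that MTF1 also controls, was low, between 1.39 and 1.92 FPKM in all libraries. It (chromosome 1, 193730659 to 193737126) had 1.55, 1.92 and 1.72 FPKM in the libraries labelled EVX1 KO and 1.69, 1.71 and 1.39 FPKM in Evx1as KO libraries, against 1.80 and 1.60 FPKM in WT libraries. All 3 groups overlapped. The log2 differences were 0.01 ± 0.15 in the libraries labelled EVX1 KO against WT, -0.06 ± 0.15 in Evx1as KO against WT and 0.07 ± 0.13 between the knockouts, each within its SE. Chromosome 1 had median deviations of 0.14, 0.13 and 0.12 in the libraries labelled EVX1 KO and -0.10, -0.09 and -0.09 in Evx1as KO libraries, against 0.02 and -0.10 in WT libraries (470 genes). Once these were subtracted, the first and last differences of Slc30a1 changed sign, to -0.16 and -0.15.

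The importers of the set had their highest means in the libraries labelled EVX1 KO. Slc39a4 (chromosome 15, 76442812 to 76447282) had 8.82, 6.54 and 4.91 FPKM in the libraries labelled EVX1 KO and 2.35, 5.34 and 2.99 FPKM in Evx1as KO libraries, against 5.13 and 4.06 FPKM in WT libraries. The groups overlapped in every comparison. The log2 differences were 0.45 ± 0.28 in the libraries labelled EVX1 KO against WT, -0.34 ± 0.28 in Evx1as KO against WT and 0.79 ± 0.25 between the knockouts.

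Slc39a10 was higher in every knockout library than in WT. It (chromosome 1, 46864388 to 46910354) had 26.6, 25.7 and 22.3 FPKM in the libraries labelled EVX1 KO and 23.9, 20.02 and 18.8 FPKM in Evx1as KO libraries, against 15.5 and 15.1 FPKM in WT libraries. The WT libraries were close to each other and below the rest, while the knockouts overlapped. The log2 differences were 0.66 ± 0.12 in the libraries labelled EVX1 KO against WT, 0.42 ± 0.12 in Evx1as KO against WT and 0.24 ± 0.11 between the knockouts. With chromosome medians subtracted, the first was 0.49 and the last 0.02.

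**Figure D4:**
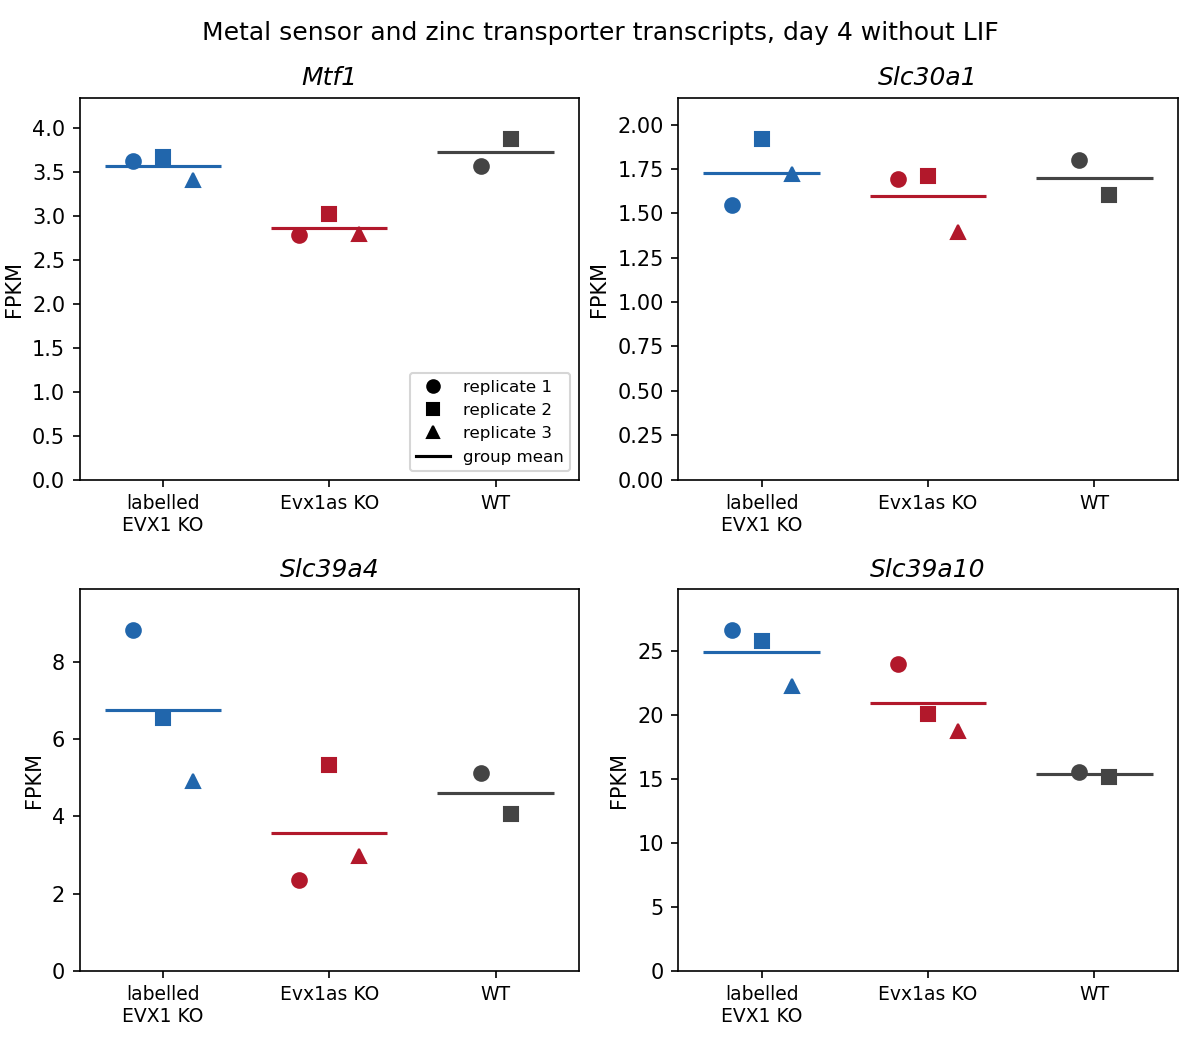
FPKM of Mtf1, Slc30a1, Slc39a4 and Slc39a10 on linear axes from 0, with 1 point per library shaped by replicate number and a line at the group mean. Slc39a10 is higher in all knockout libraries (18.8 to 26.6 FPKM) than in both WT libraries (15.1 and 15.5 FPKM), Mtf1 is lowest in Evx1as KO (2.78 to 3.03 FPKM), and the groups overlap for Slc30a1 and Slc39a4.

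FPKM is scaled to length, so the levels can be ordered within a group. In Evx1as KO the order was Mt2, Mt1, Slc39a10, Slc39a4, Mtf1 and Slc30a1, with overlap between Slc39a4 and Mtf1 only. In WT the order was the same, with overlap between Mt2 and Mt1 only. In the libraries labelled EVX1 KO, Slc39a10 came first at 24.9 ± 2.301 FPKM, ahead of Mt2 at 18.3 ± 6.29 FPKM and Mt1 at 15.1 ± 4.22 FPKM (SD, n = 3 each). Their libraries overlapped between neighbours in that order, and Slc39a4, Mtf1 and Slc30a1 followed without overlap.

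The other metallothionein genes of the cluster were near the limit of detection. Mt3, the form of brain, was listed at 0 FPKM in all libraries labelled EVX1 KO and in both WT libraries, and at 0.421, 0.397 and 0.374 FPKM in Evx1as KO libraries. Multiplied by relative depth, the 3 values were 0.363, 0.362 and 0.365, so each stood at the same low step. Mt4, the form of squamous epithelium, was listed at 0.673 FPKM in Evx1as KO replicate 2 and at 0 elsewhere. Neither was tested.

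Of the other zinc transporters, Slc39a8 rose and Slc30a2, Slc39a6 and Slc39a9 fell in Evx1as KO. Of 21 further Slc30 and Slc39 genes, 15 were expressed highly enough to be tested. In the libraries labelled EVX1 KO against WT, 0 of 15 were called by limma (3 at an unadjusted p under 0.05) and their median log2 difference was -0.15. In Evx1as KO against WT, 1 rose and 3 fell, with a median of -0.13. Between the libraries labelled EVX1 KO and Evx1as KO, 2 rose and 1 fell, with a median of 0.07. In the order given, the 0, 4 and 3 calls of 15 stand beside 1.24%, 24.5% and 22% of all genes called. In the libraries labelled EVX1 KO against WT, 21.2% of all genes tested had an unadjusted limma p under 0.05. This share also stands beside the unadjusted counts of the gene lists below.

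Slc39a8 was the transporter that rose. It encodes ZIP8, an importer of zinc, iron, manganese and cadmium, and lies on chromosome 3. It had 6.10, 3.92 and 4.40 FPKM in the libraries labelled EVX1 KO and 19.0, 17.4 and 23.6 FPKM in Evx1as KO libraries, against 5.61 and 5.67 FPKM in WT libraries. The Evx1as KO libraries all lay far above the rest, and the other groups overlapped. Slc39a8 rose 3.55-fold in Evx1as KO against WT (log2 1.65 ± 0.18, SE, limma adjusted p = 0.00102). It fell by 1.86 ± 0.16 on the log2 scale in the libraries labelled EVX1 KO against Evx1as KO (adjusted p = 3.18e-04). Both calls held under all alternatives tried. The libraries labelled EVX1 KO differed from WT by -0.21 ± 0.18 (adjusted p = 0.522), beside -2.12 for Mt1 and -2.33 for Mt2.

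Slc30a2 had the largest fall. It encodes ZnT2, which loads zinc into vesicles and is known from the mammary gland. It had 12.99, 17.7 and 20.3 FPKM in the libraries labelled EVX1 KO and 2.97, 10.5 and 4.70 FPKM in Evx1as KO libraries, against 30.7 and 22.0 FPKM in WT libraries. The groups did not overlap, and Evx1as KO was the lowest. Slc30a2 fell by 2.08 ± 0.39 in Evx1as KO against WT (limma adjusted p = 0.00670), a call lost without WT replicate 1 (adjusted p = 0.0584). It rose by 1.47 ± 0.35 in the libraries labelled EVX1 KO against Evx1as KO (adjusted p = 0.0179), lost without Evx1as KO replicate 3 (adjusted p = 0.0668) and without replicate 2 of the libraries labelled EVX1 KO (adjusted p = 0.0630), and with no filter (adjusted p = 0.0618). Against WT, the libraries labelled EVX1 KO differed by -0.61 ± 0.39 (adjusted p = 0.396).

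The remaining calls were smaller and less stable. Slc39a6, which encodes ZIP6, fell by 0.67 ± 0.18 in Evx1as KO against WT (limma adjusted p = 0.0263), lost without Evx1as KO replicate 3, WT replicate 1 or WT replicate 2 (adjusted p up to 0.117) and with no filter (adjusted p = 0.0683). Slc39a9, which encodes ZIP9, fell by 0.54 ± 0.16 there (adjusted p = 0.0351), a call lost in 9 of 17 alternatives. Without WT replicate 1 the difference was -0.35 and the call was lost. It was also lost without Evx1as KO replicate 2 or 3 or replicate 2 of the libraries labelled EVX1 KO (adjusted p up to 0.101). With no filter, only the 2 groups fitted and the replicate block, adjusted p was 0.0771, 0.0656 and 0.0722. Slc39a1, which encodes ZIP1, had 59.7 ± 2.38 FPKM in the libraries labelled EVX1 KO and 47.8 ± 2.63 FPKM in Evx1as KO (SD, n = 3 each). It rose by 0.32 ± 0.08 in the direct comparison (adjusted p = 0.0290), a call lost in 7 of 17 alternatives. Among these were the replicate block (adjusted p = 0.0571) and leaving out replicate 2 or 3 of the libraries labelled EVX1 KO. Leaving out replicate 1 or 3 of Evx1as KO also lost it (adjusted p up to 0.110). The most abundant transporter was Slc39a7, ZIP7 of the endoplasmic reticulum, with 68.2 ± 3.66 FPKM in the libraries labelled EVX1 KO, 58.4 ± 2.28 FPKM in Evx1as KO and 71.1 ± 6.11 FPKM in WT (SD, n = 3, 3 and 2). The untested transporters were Slc30a8 and Slc39a12, listed at 0 in all libraries, and Slc30a4, Slc30a10, Slc39a2 and Slc39a5.

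**Figure D5:**
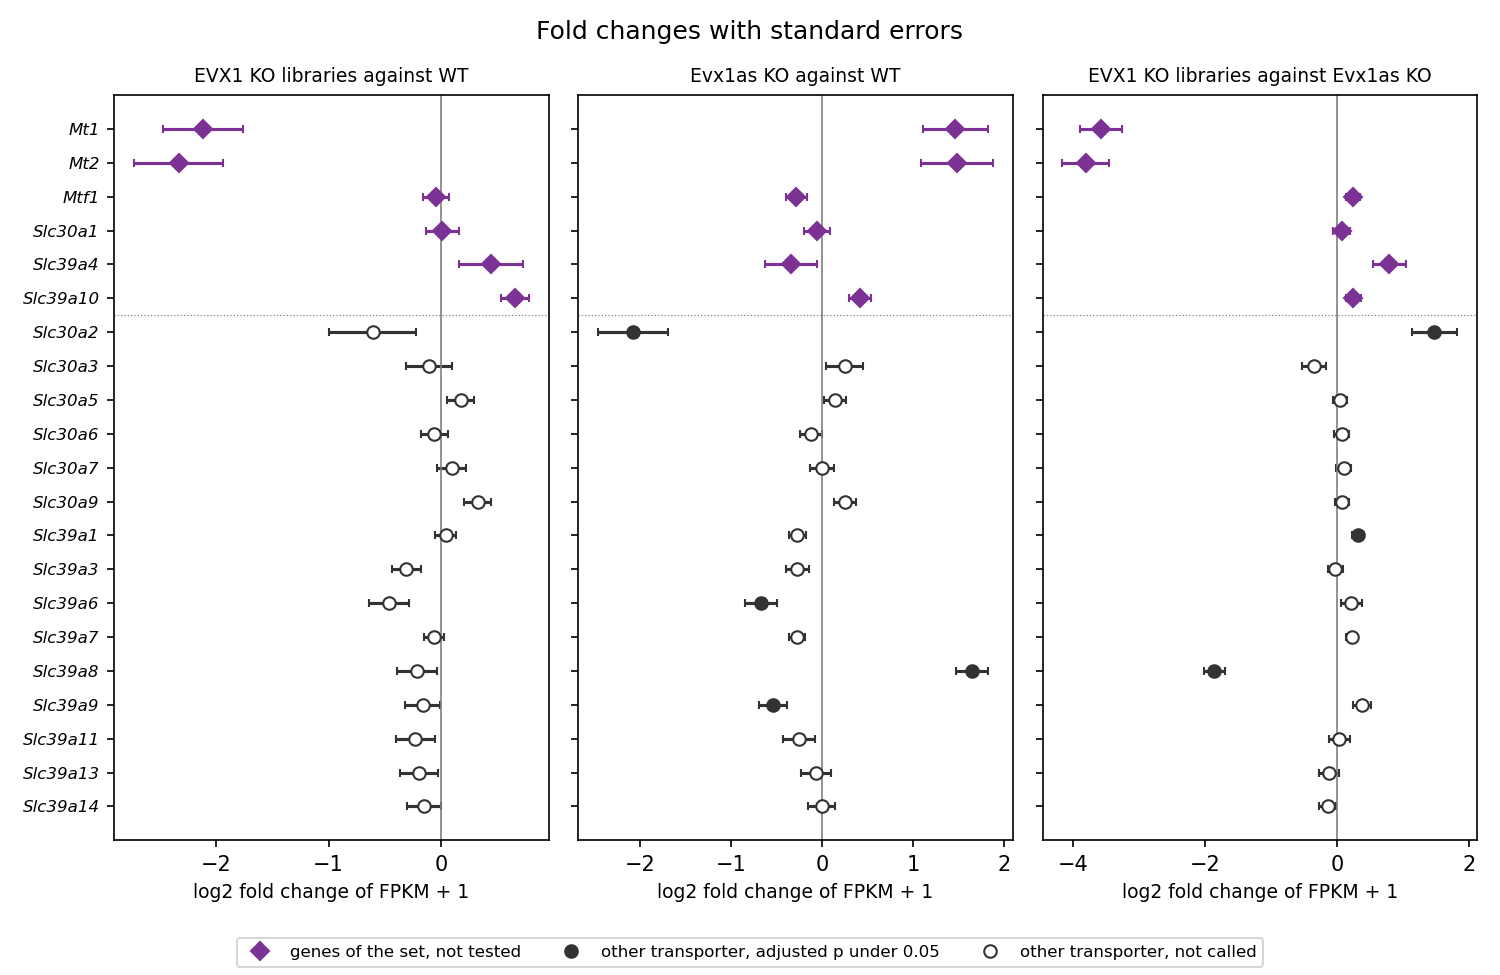
Log2 fold changes of FPKM + 1 with bars of 1 SE for the 6 genes of the set (diamonds, not tested) and the 15 other zinc transporters tested (circles, filled at adjusted p under 0.05), in the 3 comparisons. In the libraries labelled EVX1 KO against WT, Mt1 is at -2.12 and Mt2 at -2.33, and in Evx1as KO against WT they are at 1.46 and 1.48, where Slc39a8 lies at 1.65 and Slc30a2 at -2.08.

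Other genes described as MTF1 targets went both ways in Evx1as KO. Of 7 such genes, all tested, 0 were called in the libraries labelled EVX1 KO against WT (limma, 3 at an unadjusted p under 0.05, median -0.20), while 1 rose and 2 fell in Evx1as KO against WT (median -0.24). These 3 of 7 stand beside 24.5% of all genes called in Evx1as KO against WT, and the 0 of 7 beside 1.24%. Csrp1, a cytoskeletal LIM protein, had 243, 351 and 382 FPKM in the libraries labelled EVX1 KO and 151, 193 and 154 FPKM in Evx1as KO libraries, against 418 and 445 FPKM in WT libraries. The groups did not overlap. Csrp1 fell by 1.38 ± 0.19 in Evx1as KO against WT (limma adjusted p = 0.00218). It rose by 0.95 ± 0.17 in the libraries labelled EVX1 KO against Evx1as KO (adjusted p = 0.00564). In both comparisons its direction was opposite to that of Mt1. In the libraries labelled EVX1 KO against WT it lay on the same side as Mt1, at -0.43 ± 0.19 (adjusted p = 0.225).

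Pgf, a growth factor of the VEGF family, had 8.82 ± 2.39 FPKM in the libraries labelled EVX1 KO and 3.24 ± 1.13 FPKM in Evx1as KO (SD, n = 3 each), against 7.14 and 7.52 FPKM in WT libraries. It rose by 1.21 ± 0.22 in the direct comparison (limma adjusted p = 0.00694), a call lost in 1 of 17 alternatives. Its fall of 1.01 ± 0.25 in Evx1as KO against WT (adjusted p = 0.0202) was lost without WT replicate 1 or 2, and without replicate 1 or 3 of Evx1as KO (adjusted p up to 0.104), and with no filter (adjusted p = 0.0626). Gclc, the catalytic subunit of the first enzyme of glutathione synthesis, rose by 0.45 ± 0.11 in Evx1as KO against WT (adjusted p = 0.0205), lost without Evx1as KO replicate 3 or either WT library (adjusted p up to 0.119). The direct comparison, with 22% of all genes called, had 2 rises and 1 fall in this list, with a median of -0.003.

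The other known inducers of metallothioneins were read through the genes that answer to them. Of 11 tested genes of the oxidative stress response, 0 were called in the libraries labelled EVX1 KO against WT (limma, 3 at an unadjusted p under 0.05, median 0.03), 2 rose in Evx1as KO against WT (median 0.26) and 3 fell in the direct comparison (median -0.23). Over all genes the shares called were 1.24%, 24.5% and 22% in that order, so these counts were near or below the background. The 2 were Gclc and Gclm, the subunits of the same enzyme. Gclm had 10.9, 12.1 and 12.7 FPKM in the libraries labelled EVX1 KO and 21.8, 17.7 and 22.9 FPKM in Evx1as KO libraries, against 9.80 and 15.0 FPKM in WT libraries. It rose by 0.72 ± 0.17 in Evx1as KO against WT (adjusted p = 0.0181), lost without Evx1as KO replicate 1 or 3 or WT replicate 1 (adjusted p up to 0.121) and with no filter (adjusted p = 0.0513), and fell by 0.75 ± 0.16 in the direct comparison (adjusted p = 0.0110). Nqo1, a quinone reductase, had 1.11 ± 0.375 FPKM in the libraries labelled EVX1 KO and 2.82 ± 1.32 FPKM in Evx1as KO (SD, n = 3 each), against 3.12 and 2.78 FPKM in WT libraries. It lies on chromosome 8. It fell by 0.82 ± 0.23 in the direct comparison (adjusted p = 0.0361), but with chromosome centring the difference was -0.46 and the call was lost (adjusted p = 0.1502). The call was also lost with no filter, with only the 2 groups fitted and with the replicate block (adjusted p = 0.0576). Leaving out either WT library, replicate 2 or 3 of Evx1as KO, or replicate 1 or 2 of the libraries labelled EVX1 KO lost it too. In all it was lost in 12 of 16 alternatives.

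Of the glucocorticoid responsive genes, some rose and some fell in Evx1as KO. Of 7 tested, 0 were called in the libraries labelled EVX1 KO against WT (limma, 1 at an unadjusted p under 0.05, median -0.04), and 2 rose and 3 fell in Evx1as KO against WT (median -0.05). In the direct comparison 3 rose and 1 fell (median -0.01). The shares called over all genes were 1.24%, 24.5% and 22%. Fkbp5, a chaperone of the glucocorticoid receptor, had 16.7, 17.4 and 14.9 FPKM in the libraries labelled EVX1 KO and 22.0, 22.3 and 25.4 FPKM in Evx1as KO libraries, against 10.5 and 12.4 FPKM in WT libraries. It rose by 0.96 ± 0.12 in Evx1as KO against WT (adjusted p = 0.00152). Sgk1, a kinase, fell by 1.28 ± 0.22 (adjusted p = 0.00499), with 11.3 ± 4.05 FPKM in Evx1as KO (SD, n = 3) against 29.4 and 26.6 FPKM in WT libraries. Dusp1, a phosphatase, fell by 1.30 ± 0.24 (adjusted p = 0.00693), lost without WT replicate 2 (adjusted p = 0.0616).

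Of 9 tested heat shock genes, 0 were called in the libraries labelled EVX1 KO against WT (limma, 3 at an unadjusted p under 0.05, median -0.09), and 3 fell and 0 rose in Evx1as KO against WT (median -0.11), where 24.5% of all genes were called and 11.4% fell. The direct comparison had 1 rise and 0 falls (median 0.17). Over all genes, 1.24% were called in the libraries labelled EVX1 KO against WT and 22% in the direct comparison. Hspb1, a small chaperone, had 716, 747 and 878 FPKM in the libraries labelled EVX1 KO and 418, 593 and 406 FPKM in Evx1as KO libraries, against 865 and 1041 FPKM in WT libraries. It fell by 1.03 ± 0.17 in Evx1as KO against WT (adjusted p = 0.00437) and rose by 0.74 ± 0.15 in the direct comparison (adjusted p = 0.0109). The latter call was lost in 1 of 17 alternatives. Hspa1a fell by 1.24 ± 0.19 (adjusted p = 0.00341) and Hspa1b by 1.69 ± 0.30 (adjusted p = 0.00535) in Evx1as KO against WT. They are near-identical copies of the inducible chaperone HSP70, so the counting could have split reads between them.

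The LIF and STAT3 pathway, which is known to induce metallothioneins in liver, gave 0 calls of 8 in the libraries labelled EVX1 KO against WT (limma, 2 at an unadjusted p under 0.05, median 0.32). In Evx1as KO against WT, 1 rose and 3 fell (median -0.14), and in the direct comparison 3 rose, Lifr, Il6st and Stat3 (median 0.23). The shares called over all genes were 1.24%, 24.5% and 22% in these comparisons. Il6st, which encodes the shared receptor subunit gp130, had 18.8, 18.2 and 18.2 FPKM in the libraries labelled EVX1 KO and 12.4, 13.3 and 11.8 FPKM in Evx1as KO libraries, against 20.3 and 21.4 FPKM in WT libraries. It fell by 0.70 ± 0.09 in Evx1as KO against WT (adjusted p = 0.00187) and rose by 0.53 ± 0.08 in the direct comparison (adjusted p = 0.00335). The latter call was lost in 2 of 17 alternatives. Socs3, the feedback inhibitor that STAT3 induces, rose by 0.59 ± 0.15 in Evx1as KO against WT (adjusted p = 0.0197), lost without Evx1as KO replicate 1 or 3 or WT replicate 2 (adjusted p up to 0.139).

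The genes with the pattern most like that of Mt1 were ranked by the root mean square difference of log2(FPKM + 1) over the 8 libraries, each gene centred on its own mean. Mt2 was closest at 0.323, and then came Foxd3 at 0.783, Mapk13 at 0.826, Myb at 0.829 and Pipox at 0.842. For Mt2 the order was Mt1, then the same 4 genes between 0.896 and 0.927. Foxd3, a forkhead factor of pluripotent cells, had 0.117, 0.239 and 0.340 FPKM in the libraries labelled EVX1 KO and 6.71, 5.89 and 5.81 FPKM in Evx1as KO libraries, against 0.650 and 0.747 FPKM in WT libraries. Mapk13, a p38 kinase, had 4.56, 3.26 and 4.53 FPKM in the libraries labelled EVX1 KO and 23.6, 19.96 and 28.3 FPKM in Evx1as KO libraries, against 6.33 and 6.13 FPKM in WT libraries. In both, as for Mt1 and Mt2, the WT libraries lay between the knockouts without overlap. This order follows in large part from picking genes by likeness over the same 8 libraries. Evx1as KO differed from WT by 2.07 for Foxd3 and 1.77 for Mapk13 (log2). The libraries labelled EVX1 KO differed from WT by -0.47 and -0.51, and by -0.33 for Myb and -0.19 for Pipox. Mt1 and Mt2 differed there by -2.12 and -2.33. The scale understates the changes of Foxd3, Myb and Pipox, which are low there. By group means the libraries labelled EVX1 KO were 3.01-fold lower than WT for Foxd3, 1.51-fold for Mapk13, 4.32-fold for Myb and 1.52-fold for Pipox. For Mt1 and Mt2 these folds were 4.94 and 5.82.

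Marker genes of cell types that could differ in metallothionein content also differed between groups. The summed level of 16 extraembryonic endoderm markers was 151.8 to 176 FPKM in the libraries labelled EVX1 KO and 81.9 to 106 FPKM in Evx1as KO libraries, against 171 to 215 FPKM in WT libraries. Lamb1 and Col4a1, matrix genes, were the highest of them in every library. Their means were 60.0 and 52.3 FPKM in the libraries labelled EVX1 KO, 48.3 and 35.4 FPKM in Evx1as KO and 67.6 and 94.7 FPKM in WT. Sox17, Gata4 and Gata6 had means of 6.52, 19.8 and 7.89 FPKM in the libraries labelled EVX1 KO. They had 0.244, 0.524 and 0.343 FPKM in Evx1as KO and 0.889, 11.4 and 5.81 FPKM in WT. Sox7 had means of 0.165, 0.0621 and 0.240 FPKM in that group order. Afp and Ttr, secreted proteins of visceral endoderm, were listed below 0.3 FPKM in all libraries. Of the 8 of these markers tested, 0 were called in the libraries labelled EVX1 KO against WT (limma, 3 at an unadjusted p under 0.05), and 4 fell and 0 rose in Evx1as KO against WT, beside 1.24% and 24.5% of all genes called. The 10 fibroblast or feeder markers summed to 915 to 1071 FPKM in the libraries labelled EVX1 KO and 347 to 560 FPKM in Evx1as KO libraries, against 1046 to 1369 FPKM in WT libraries. Fn1 and Vim held 92.1% to 98.1% of this sum, and Thy1 had 2.39, 3.54 and 3.51 FPKM in the libraries labelled EVX1 KO and 3.86, 6.39 and 9.23 FPKM in Evx1as KO libraries, against 3.00 and 6.17 FPKM in WT libraries. The 9 trophoblast markers summed to 70.5 to 95.6 FPKM in the libraries labelled EVX1 KO and 22.0 to 63.0 FPKM in Evx1as KO libraries, against 100.5 to 137 FPKM in WT libraries, with Tpbpa and Prl3d1 at 0 in all. Krt7 was the highest of them in every library. It had 37.7 to 55.1 FPKM in the libraries labelled EVX1 KO and 13.6 to 47.1 FPKM in Evx1as KO libraries, against 91.7 and 58.1 FPKM in WT libraries. The 8 neural markers summed to 31.7 to 79.8 FPKM in the libraries labelled EVX1 KO and 71.7 to 96.4 FPKM in Evx1as KO libraries, against 75.2 to 94.1 FPKM in WT libraries. Nes and Tubb3 held 90.2% to 96.7% of it. Sox1, an early neural factor on chromosome 8, had 0.0664, 0.0679 and 0.0322 FPKM in the libraries labelled EVX1 KO and 3.00, 2.06 and 3.41 FPKM in Evx1as KO libraries, against 0.336 and 0.0284 FPKM in WT libraries, and limma called it higher in Evx1as KO in both comparisons. Pax6 was listed at 0 in the libraries labelled EVX1 KO and had 0.441 to 0.917 FPKM in Evx1as KO libraries, against 0.163 and 0.0917 FPKM in WT libraries. The 8 markers of undifferentiated stem cells, which define the labelled cell type and were present, summed to 667 to 691 FPKM in the libraries labelled EVX1 KO and 750 to 865 FPKM in Evx1as KO libraries, against 564 to 602 FPKM in WT libraries. Pou5f1 held 43.7% to 54.7% of this sum. Of these 8, Pou5f1, Nanog and Sox2 rose and Klf4 fell in Evx1as KO against WT, beside 24.5% of all genes called. Klf4 had 1.15, 1.98 and 1.02 FPKM in Evx1as KO libraries, against 4.21 and 3.66 FPKM in WT libraries. In the libraries labelled EVX1 KO against WT, 0 of 8 were called (limma, 5 at an unadjusted p under 0.05). Nanog had 128, 85.6 and 81.6 FPKM in these libraries, against 25.0 and 49.3 FPKM in WT libraries. Dppa5a had 31.0, 30.2 and 24.5 FPKM in them, against 85.2 and 70.9 FPKM in WT libraries. The part of these markers in the levels of Mt1 and Mt2 was not tested.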

How the data were processed

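RNA was extracted with TRIzol, poly(A) RNA selected and libraries made with a TruSeq Stranded kit, per the labels. The authors deposited 1 table of FPKM for 8 libraries. Per the submitters' processing notes, the tools were CASAVA and TopHat2 2.0.11 and the builds mm10 and mm9, without their roles. The way FPKM was computed, its annotation and its strand setting were not given in the sources used here, so overlapping and antisense genes are uncertain. Positions are those of the deposited table, and for these genes they are not those of GRCm38. Promoter sequences are from RefSeq on GRCm38.p6, where 5 of the 6 genes had a window.

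Of 45772 lines, 3527 were blank, and 2660 symbols on several lines with the same values were used once. The 11633 XLOC identifiers among the symbols have no gene name. The 13188 genes that reached 1 FPKM in 2 or more libraries entered 1 fit of log2(FPKM + 1) with a mean per group (limma 3.58.1, R 4.3.3, empirical Bayes with a trend, two-sided). Calls are at a Benjamini-Hochberg adjusted p under 0.05 over all genes tested. The groups come from the sample titles. The fit was tested on simulated data with independent noise for each gene. Those data held no shifts of whole chromosomes, so the test does not show how calls behave with such shifts. Relative depth comes from steps between low FPKM values, at which 19.0% to 23.0% of the low genes used lay. Alternatives were a pseudocount of 0.1, no filter, a filter of 5 FPKM, median-ratio scaling, chromosome centring, only the 2 groups compared, a replicate block, and leaving out each library. Using replicate 3 alone for the libraries labelled EVX1 KO, and replicate 1 alone for Evx1as KO, was added after seeing the data, because of their chromosome 8 and 14 medians.

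The members and lists were chosen with earlier results of these data known. From each list, called genes were eligible to be named, up to 4 per comparison by size of change, and some of these are described. Genes of similar pattern were the 5 closest, with unnamed and predicted genes passed over, and neighbours were all tested named genes within 500 kb. The tables were written in Python 3.11.15 using numpy 2.4.6 and pandas 2.3.3, and plots used matplotlib 3.10.9.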

Additional observations from a re-analysis of the deposited data

How the results depend on the processing

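The differences of Mt1 and Mt2 kept their sign under all alternatives, but the genes were chosen for these signs in the same libraries. Leaving out 1 library at a time gave log2 differences for the libraries labelled EVX1 KO against WT of -2.79 to -1.45 for Mt1 and -3.10 to -1.57 for Mt2, for Evx1as KO against WT of 0.79 to 2.13 for Mt1 and 0.71 to 2.25 for Mt2, and between the knockouts of -3.71 to -3.34 for Mt1 and -4.06 to -3.60 for Mt2. The number of genes called in the libraries labelled EVX1 KO against WT, 164, was 28 with no filter, 27 with only the 2 groups, 28 with the replicate block, 8 with replicate 3 as their only library, 27 with replicate 1 as the only Evx1as KO library, and 4 to 634 on leaving out 1 library, lowest without their replicate 2 and highest without their replicate 3. In Evx1as KO against WT, 3230 genes were called, 1421 to 3414 on leaving out 1 library, lowest without WT replicate 1, and 1208 with replicate 1 as the only Evx1as KO library. Between the knockouts 2903 genes were called, 1409 to 2666 on leaving out 1 library, lowest without Evx1as KO replicate 3, 729 with replicate 3 as the only library labelled EVX1 KO, and 785 with replicate 1 as the only Evx1as KO library.

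Zinc transporters called in Evx1as KO against WT, 4 of 15, were 2 with no filter, 2 with replicate 1 as the only Evx1as KO library, and 1 to 5 on leaving out 1 library, lowest without WT replicate 1. Against WT the libraries labelled EVX1 KO had 0, and 1 without their replicate 3. Between the knockouts 3 were called, 5 with chromosome centring, 1 with replicate 3 as the only library labelled EVX1 KO, and 1 to 3 on leaving out 1 library, lowest without Evx1as KO replicate 3 and without replicate 2 of the libraries labelled EVX1 KO. Of 57 calls of other named genes, 17 held under all alternatives and 0 changed sign, with 26 lost with replicate 3 as the only library labelled EVX1 KO, 32 with replicate 1 as the only Evx1as KO library, 17 with no filter, 5 with chromosome centring and 4 to 23 on leaving out 1 library. For calls that were lost the cause was not tested. Same-numbered libraries deviated with correlations of -0.17 to 0.11, so the numbers were not taken as pairs. Low FPKM, as of Slc30a1, Mt3 and Mt4, rest on few fragments, and the number of these cannot be given without depth.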

Other observations

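Glutathione is the other main thiol of the cytosol. Of 9 tested genes of its metabolism, 3 rose and 1 fell in Evx1as KO against WT (limma, median 0.26), 1 fell in the libraries labelled EVX1 KO against WT (median -0.12), and 3 fell in the libraries labelled EVX1 KO against Evx1as KO (median -0.33). Over all genes, 24.5%, 1.24% and 22% were called in these comparisons in the order given. Gsta4, a glutathione transferase, had 29.2, 30.1 and 24.8 FPKM in the libraries labelled EVX1 KO and 68.4, 55.5 and 72.9 FPKM in Evx1as KO libraries, against 35.3 and 35.8 FPKM in WT libraries. It rose by 0.86 ± 0.13 in Evx1as KO against WT (SE, limma adjusted p = 0.00319) and fell by 1.19 ± 0.12 in the direct comparison (adjusted p = 4.66e-04). Gpx1, a glutathione peroxidase, had 331 ± 17.1 FPKM in the libraries labelled EVX1 KO and 282 ± 23.2 FPKM in Evx1as KO (SD, n = 3 each), against 534 and 511 FPKM in WT libraries. It fell by 0.89 ± 0.09 in Evx1as KO against WT (adjusted p = 9.40e-04). Its fall of 0.66 ± 0.09 in the libraries labelled EVX1 KO against WT (adjusted p = 0.0216) was lost on leaving out either WT library or replicate 1 or 2 of the libraries labelled EVX1 KO (adjusted p up to 0.163), and in all in 9 of 17 alternatives.

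Among genes that handle the other metals, Atp7b, a copper exporting ATPase, had 2.97, 2.37 and 2.79 FPKM in the libraries labelled EVX1 KO and 6.03, 5.20 and 5.59 FPKM in Evx1as KO libraries, against 2.29 and 1.62 FPKM in WT libraries. It rose by 1.17 ± 0.15 in Evx1as KO against WT (limma adjusted p = 0.00172). It lies on chromosome 8, and its fall of 0.83 ± 0.13 in the libraries labelled EVX1 KO against Evx1as KO (adjusted p = 0.00351) was lost with chromosome centring (adjusted p = 0.0528). Of 10 copper genes tested, 2 rose and 2 fell in Evx1as KO against WT (median -0.12). The libraries labelled EVX1 KO against WT had 1 fall (median -0.06), and the direct comparison 2 falls (median -0.19), beside 24.5%, 1.24% and 22% of all genes called. The fall against WT in the libraries labelled EVX1 KO was of Cox17, a copper chaperone, and was lost in 10 of 17 alternatives. The fall of Ccs, the chaperone of superoxide dismutase, in the direct comparison was lost in 9 of 17.

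Steap3, a reductase that frees iron in endosomes, had 9.94, 10.3 and 10.2 FPKM in the libraries labelled EVX1 KO and 34.0, 22.1 and 34.0 FPKM in Evx1as KO libraries, against 6.60 and 7.43 FPKM in WT libraries. It rose by 1.93 ± 0.17 in Evx1as KO against WT (limma adjusted p = 6.41e-04) and fell by 1.45 ± 0.16 in the direct comparison (adjusted p = 6.94e-04). Of 9 iron genes tested, 1 rose and 0 fell in Evx1as KO against WT (median 0.25). None was called in the libraries labelled EVX1 KO against WT (0 of 9, 3 at an unadjusted p under 0.05, median 0.21), and 2 fell in the direct comparison (median -0.04). The shares called over all genes were 24.5%, 1.24% and 22%, so these counts were near or below the background.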
